A study of Homo sapiens with 27 samples.

Results

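The 25 shRNAs described here, of 3177 in a pooled kinome screen, were held by cells grown with vehicle and were all but absent from cells treated with an ErbB inhibitor. An shRNA was taken as lost with an inhibitor when its counts summed to at least 30 over the 3 DMSO plates of a line, when at least 2 of these plates were above 0, and when it had at most 3 counts over the 3 treated plates. Each of 6 comparisons was searched, gefitinib or AZD8931 against DMSO in the lines UMSCC1, UMSCC8 and UMSCC25. These criteria were met 27 times. TRCN0000010102 met them with both inhibitors in UMSCC1 and TRCN0000013512 with both in UMSCC8, and 0 shRNAs met them in 2 lines. No comparison lost more than 0.586% of the shRNAs held with DMSO. At such shares the 0 does not tell whether losses differ by line. The members were chosen by their counts on the DMSO and treated plates, so that their values in the comparison that chose them are a description and carry no test.

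UMSCC1, UMSCC8 and UMSCC25 are established lines of head and neck squamous cell carcinoma origin. They were transduced, line by line, with a lentiviral library of shRNAs against human kinases, selected with puromycin and divided over plates that received DMSO, 300 nM gefitinib or 30 nM AZD8931 for 72 hours, followed by 72 hours without the agent. A second field of the sample labels gives 1000 nM for both inhibitors, so that the dose is uncertain and the inhibitors are not compared at matched doses. Every group, DMSO included, carried the library and had been through the puromycin selection, and the 9 groups had 3 plates each.

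In a screen of this kind each cell carries an integrated hairpin cassette that silences a gene and at the same time tags the cell and its daughters. Counting the cassettes in genomic DNA gives the share of the population that descends from the cells with each hairpin, and a hairpin that falls in drug-treated cells is a candidate for a gene whose loss is harmful together with the drug. Gefitinib blocks the EGFR tyrosine kinase, and AZD8931 blocks EGFR, ERBB2 and ERBB3. A hairpin carried by few cells can also drop from a plate because few of its cells were seeded or few of its DNA copies were amplified. These events and the death of its cells cannot be told apart from counts.

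Library totals ranged from 178406 to 559422 counts, with a median of 26 to 83 counts per shRNA. Where an shRNA was at 0, up to 3 counts remain possible, or 5.36 to 16.8 CPM (counts scaled to a common library size of 1e+06) depending on depth. Of the 27 libraries, 3 touch the results below. AZD8931 replicate 1 of UMSCC1 had 354 shRNAs at 0, while the remaining UMSCC1 libraries had 163 to 260. DMSO replicate 1 of UMSCC8 had 328 at 0, where the rest of UMSCC8 had 81 to 139, and gefitinib replicate 3 of UMSCC8 was the shallowest library. The deposited table lists hairpins by clone identifier and the files do not pair them with genes, so that identifiers are the only names given.

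AZD8931 in UMSCC1 stood out by number. Here 16 shRNAs were lost with the inhibitor, 0.586% of the 2730 that the DMSO plates held, and 3 showed the reverse (lost with DMSO, held with AZD8931), 0.118% of the 2549 held by the AZD8931 plates. In the remaining comparisons 0 to 4 shRNAs were lost and 1 to 7 showed the reverse. With gefitinib in UMSCC1, 4 were lost (0.147%) and 7 showed the reverse (0.252%). With gefitinib in UMSCC8, 2 were lost (0.0687%) and 1 showed the reverse (0.0354%), and with AZD8931 in UMSCC8 the numbers were 2 (0.0687%) and 2 (0.0685%). With gefitinib in UMSCC25, 3 were lost (0.105%) and 1 showed the reverse (0.0361%), and with AZD8931 in UMSCC25 0 were lost (0.0%) and 1 showed the reverse (0.0353%). The numbers are descriptions of these plates, and their differences were not tested.

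The summed depth was nearly equal in the comparison with the most members, with 1210838 counts over the DMSO plates and 1208001 over the AZD8931 plates of UMSCC1. With every library of a line scaled to the mean total of that line, an alternative chosen after seeing the data, 15 shRNAs were lost with AZD8931 in UMSCC1 and 2 showed the reverse. The number depended on single plates. It was 10 without DMSO replicate 1, 3 without DMSO replicate 3, 44 without AZD8931 replicate 2 and 76 without AZD8931 replicate 3. Leaving out a plate with the count limits kept makes the DMSO criterion harder or the treated criterion easier to meet, and the reverse number moved from 3 to 15 without DMSO replicate 1, to 11 without DMSO replicate 3 and to 0 without AZD8931 replicate 3. Without AZD8931 replicate 1, the library with 354 shRNAs at 0, 24 shRNAs were lost and 2 showed the reverse.

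The inhibitors can also be set against each other without the DMSO plates. In UMSCC1, 22 shRNAs were held with gefitinib and lost with AZD8931 (0.793% of 2775), and 5 were held with AZD8931 and lost with gefitinib (0.196% of 2549). Of the 22, 12 were among the 16 lost against DMSO, on the same AZD8931 plates. The gefitinib plates of UMSCC1 were deeper, with 1466826 counts against 1208001 with AZD8931. Greater depth makes a hairpin more readily held and less readily lost, and these numbers were not scaled for it. In UMSCC8 the same numbers were 0 (0.0%) and 1 (0.0343%), and in UMSCC25 they were 1 (0.0361%) and 4 (0.141%).

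The 16 shRNAs lost with AZD8931 in UMSCC1 had between 31 and 107 counts over the DMSO plates (median 45.5), and 6 of them had 0 counts on all AZD8931 plates. TRCN0000010021 had the most DMSO counts of any member, with 19, 4 and 84 on DMSO replicates 1 to 3, 0, 2 and 0 on the AZD8931 plates, and 40, 42 and 8 on the gefitinib plates. TRCN0000001935 had 19, 12 and 37 counts with DMSO, 0 on each AZD8931 plate, and 60, 12 and 3 with gefitinib. For the latter this is at least 22.6-fold lower with AZD8931, taking the limit of 3 counts that 0 counts allow over the group. Both were well represented over the gefitinib plates, with 90 counts against 107 with DMSO and 75 against 68. These sums are not scaled for depth, which was 1466826 counts with gefitinib and 1210838 with DMSO.

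TRCN0000006387 had 8, 11 and 45 counts with DMSO, 0, 0 and 1 with AZD8931, and 70, 58 and 14 with gefitinib. TRCN0000021396 also had 64 counts over the DMSO plates, 28, 2 and 34 by plate, with 0, 0 and 1 with AZD8931 and 7, 1 and 8 with gefitinib. The ratio of DMSO to AZD8931 was 63.9 for each (95% exact binomial interval 11.1 to 2561, counting error only). They parted on the gefitinib plates, where the first had 142 counts in all and the second 16.

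TRCN0000036970 had 5, 5 and 46 counts with DMSO, 0 on each AZD8931 plate, and 15, 7 and 7 with gefitinib. TRCN0000010127 had 5, 5 and 44 with DMSO, 0 on each AZD8931 plate, and 50, 8 and 9 with gefitinib. TRCN0000010124 had 21, 0 and 27 with DMSO, 0, 0 and 1 with AZD8931, and 63, 42 and 20 with gefitinib. In all 3 the highest DMSO plate was replicate 3.
TRCN0000002223 had 2, 0 and 45 counts with DMSO, 1, 0 and 1 with AZD8931, and 44, 5 and 2 with gefitinib. TRCN0000010034 had 0, 1 and 43 with DMSO, 0 on each AZD8931 plate, and 36, 45 and 1 with gefitinib. TRCN0000010196 had 7, 2 and 30 with DMSO, 0 on each AZD8931 plate, and 15, 27 and 1 with gefitinib. In each of them DMSO replicate 3 held most of the DMSO counts, and gefitinib replicate 3 was the lowest of the gefitinib plates.
TRCN0000037795 had 25, 3 and 10 counts with DMSO, 0, 1 and 0 with AZD8931, and 0, 29 and 8 with gefitinib. TRCN0000003179 had 20, 16 and 1 with DMSO, 0, 1 and 0 with AZD8931, and 5, 2 and 26 with gefitinib. TRCN0000037881 had 0, 18 and 13 with DMSO, 0, 0 and 2 with AZD8931, and 23, 5 and 0 with gefitinib. These 3 were the only ones of the 16 whose highest DMSO count was not on replicate 3.
TRCN0000001783 had 6, 8 and 22 counts with DMSO, 0, 0 and 2 with AZD8931, and 22, 0 and 35 with gefitinib. TRCN0000000557 had 11, 1 and 20 with DMSO, 0, 1 and 0 with AZD8931, and 17, 8 and 20 with gefitinib. TRCN0000010102 had 3, 9 and 20 with DMSO, 0 on each AZD8931 plate, and 0, 2 and 1 with gefitinib. It alone of the 16 was also lost with gefitinib, with which 12 of the 16 had at least 30 counts and 9 had more counts than with DMSO. These counts are not scaled for the greater depth of the gefitinib plates. The 2 inhibitors share the DMSO plates in these values.

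Most of the 16 shared a pattern over the DMSO plates, read from the same DMSO counts that chose them. The criteria name no plate, but counts on a deep plate meet the summed limit more readily. Replicate 3 was the deepest DMSO library of UMSCC1, with 491217 counts, so the pattern is a description only. By CPM 12 of the 16 were highest on DMSO replicate 3. On gefitinib replicates 1 to 3, 6, 6 and 4 were highest, so no gefitinib plate was the highest for most of them. Summed over the 16, they had 356, 429 and 978 CPM on DMSO replicates 1 to 3 of UMSCC1 and 834, 754 and 271 CPM on the gefitinib plates. The AZD8931 plates had 3.05, 18.3 and 14.9 CPM, which the limit of 3 treated counts keeps low. DMSO replicate 3 held 65.4% of the DMSO counts of the 16, against 40.6% of the DMSO counts of all shRNAs, and every one of the 16 had over 50% of its DMSO counts on 1 plate. The latter was common, with 66.8% of 677 UMSCC1 hairpins of like abundance that were not members and 24 of all 27 cases of a loss. The share on DMSO replicate 3 was not computed for these hairpins of like abundance. On the AZD8931 plates 15, 12 and 10 of the 16 were at 0, where the limit of 3 treated counts asks for few counts.

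Zeros were compared with those of 677 hairpins of like abundance, which had 31 to 107 counts over the DMSO plates of UMSCC1, met the DMSO criteria and were not members. Of these, 14.0% were at 0 on AZD8931 replicate 1, 4.43% on replicate 2 and 2.51% on replicate 3. On the gefitinib plates 4.28%, 4.28% and 1.77% were at 0. AZD8931 replicate 1 thus had the highest share of zeros, while replicate 3 lay within the range of the gefitinib plates and replicate 2 just above it. Without replicate 1 the number of lost shRNAs was 24, as given above.

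In the other lines, 11 of the 16 in UMSCC8 and 7 of the 16 in UMSCC25 had enough DMSO counts to meet the criteria, and 0 of these were lost with either inhibitor. The rest could not have met them. Of all shRNAs held with DMSO in UMSCC8, 0.0687% were lost with gefitinib and 0.0687% with AZD8931. In UMSCC25 the shares were 0.105% with gefitinib and 0.0% with AZD8931. At such shares nothing about the members can be read from the 0. The 16 summed to 1063, 726 and 1324 CPM on the DMSO plates of UMSCC8, 947, 1410 and 829 CPM with AZD8931, and 1091, 1510 and 922 CPM with gefitinib. The 3 groups of UMSCC8 overlapped. In UMSCC25 the sums were 510, 338 and 215 CPM with DMSO, 548, 287 and 210 CPM with gefitinib, and 294, 1135 and 1042 CPM with AZD8931. AZD8931 replicates 2 and 3 of UMSCC25 were thus above every other plate of that line and replicate 1 was among the DMSO plates. Plates of 1 group differed here by up to several times, with 10 of the 16 highest by CPM on replicate 3 among the DMSO plates of UMSCC8 and 12 of the 16 highest on replicate 1 among the gefitinib plates of UMSCC25.

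The 19 shRNAs lost with either inhibitor in UMSCC1 were all tested in the other lines, by edgeR's quasi-likelihood test over all shRNAs with Benjamini-Hochberg adjustment. None of the 76 tests passed an adjusted p under 0.05 in either direction, which says nothing about the members, since edgeR called 0.0% of all shRNAs at that threshold in both lines. DESeq2 called 0 of the 19 as well, but it tested fewer shRNAs in most of these comparisons. How many of the 19 were among them was not counted, so nothing can be read from that 0. At an unadjusted p under 0.05, edgeR had 1 lower and 6 higher. Over all shRNAs of UMSCC8, gefitinib had 6.93% lower and 6.0% higher at that level, and AZD8931 had 3.85% lower and 3.27% higher. In UMSCC25 the shares were 2.72% lower and 4.82% higher for gefitinib, and 4.01% lower and 5.28% higher for AZD8931. DESeq2 tested 2511 shRNAs of UMSCC8 for gefitinib and called 1.15% of them lower and 1.75% higher. For AZD8931 it tested 1425 and called 0.281% lower and 0.14% higher. In UMSCC25 it tested 1233 for gefitinib (0.0811% lower and 0.568% higher) and 3090 for AZD8931 (0.0324% lower and 0.227% higher). With AZD8931 in UMSCC25 the median log2 fold change of the 19 was 0.95, against 0.00332 over all 3090 shRNAs tested. There 17 of the 19 were above 0, where 49.6% of all shRNAs were below 0. At an unadjusted p under 0.05 by edgeR, 5 of the 19 were higher, where 5.28% of all shRNAs were. TRCN0000037881, among the 5, had 0 counts on each DMSO plate. The 19 were read on the same plates, so they are not separate observations of the line. Leaving out a library gave medians between 0.72 and 1.42.
With gefitinib in UMSCC25 the median of the 19 was -0.15. It became 0.38 when gefitinib replicate 3 was left out, and -1.57 when replicate 1 was. In UMSCC8 it was 0.71 with gefitinib (0.18 without gefitinib replicate 2 and 1.48 without DMSO replicate 3) and 0.28 with AZD8931. The latter became -0.12, -0.10 and 0.99 when DMSO replicate 1, 2 or 3 was left out. The medians over all shRNAs lay between -0.00424 and 0.0123 in these comparisons. The 2 inhibitors of a line share its DMSO plates.

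On every AZD8931 plate of UMSCC25, 3 members of UMSCC1 went against their loss. TRCN0000001935 had 3, 15 and 1 counts with DMSO and 24, 25 and 33 with AZD8931 in UMSCC25, which is 2.25 ± 1.06 on the log2 scale (± standard error, edgeR adjusted p = 0.529). TRCN0000010021 had 6, 7 and 5 counts with DMSO and 9, 34 and 40 with AZD8931 (2.41 ± 1.08 on the log2 scale, edgeR adjusted p = 0.515). TRCN0000010127 had 2, 3 and 1 counts with DMSO and 7, 21 and 20 with AZD8931 (3.11 ± 1.26 on the log2 scale, edgeR adjusted p = 0.496). In each the AZD8931 plates were above the DMSO plates without overlap. The share of all shRNAs separated in this way was not counted, so the separation is a description only. The edgeR unadjusted p was 0.046, 0.037 and 0.023 in this order, and none passed the adjusted threshold. In this comparison edgeR called 0 of 3090 shRNAs higher at that threshold, so the adjusted values do not place these changes within the plate spread. These hairpins were picked by a search for opposite directions, so their unadjusted p-values are descriptions.
TRCN0000037881 is a member in UMSCC1 and in the reverse list of UMSCC25. In UMSCC25 it had 0 counts on each DMSO plate, 23, 4 and 31 with gefitinib and 1, 10 and 0 with AZD8931. Its gefitinib level there is at least 20.9-fold higher than with DMSO, taking the limit of 3 counts over the group (edgeR adjusted p = 0.439). TRCN0000006387, lost with AZD8931 in UMSCC1, had, for gefitinib in UMSCC25, the most DMSO counts of the hairpins with 4 treated counts, with 37, 8 and 2 counts with DMSO and 3, 0 and 1 with gefitinib. The fitted change was -3.23 ± 1.25 on the log2 scale (edgeR adjusted p = 0.542), with 37 of 47 DMSO counts on 1 plate, and it had 6, 69 and 30 counts with AZD8931.

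A minority of the members lay close together in clone number. Of the 16 lost with AZD8931 in UMSCC1, 6 had numbers between 10000 and 10199 (TRCN0000010021, TRCN0000010034, TRCN0000010102, TRCN0000010124, TRCN0000010127 and TRCN0000010196), a span that holds 150 of the 3177 shRNAs and 4.18% of those held by the DMSO plates. The span was chosen after the members were seen and was not tested. No member of any comparison had a direct neighbour in clone number among the members, and the smallest gap was 3. Over the 144 other shRNAs of the span, none of them a member, the median CPM was 0.432, 0.397 and 0.553 times that of the shRNAs outside it on the DMSO plates of UMSCC1. It was 0.559, 0.556 and 0.575 times with gefitinib and 0.149, 0.361 and 0.354 times with AZD8931. Each AZD8931 plate was below each of the other 6 plates, with replicate 1 the lowest.
In UMSCC8 the same ratio was 0.609, 0.464 and 0.552 with DMSO, 0.635, 0.518 and 0.446 with gefitinib, and 0.453, 0.576 and 0.500 with AZD8931. In UMSCC25 it was 0.453, 0.392 and 0.426 with DMSO, 0.492, 0.330 and 0.364 with gefitinib, and 0.446, 0.480 and 0.464 with AZD8931. The groups of UMSCC8 overlapped. In UMSCC25 the ratio was lower on gefitinib replicates 2 and 3 than on any other plate. The part of this shift in the loss of the 6 members was not tested.

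Gefitinib in UMSCC1 left 4 members, with 31 to 33 DMSO counts each, and none at 0 over the treated plates. TRCN0000000377 had 10, 8 and 15 counts with DMSO, 2, 0 and 0 with gefitinib, and 0, 0 and 8 with AZD8931. TRCN0000002199 had 24, 0 and 8 with DMSO, 0, 2 and 0 with gefitinib, and 26, 11 and 17 with AZD8931. The former was scarce with both inhibitors, and the latter had 54 counts over the AZD8931 plates against 32 with DMSO.
TRCN0000002081 had 9, 2 and 20 counts with DMSO, 0, 0 and 3 with gefitinib, and 6, 10 and 10 with AZD8931. TRCN0000010102, described above, had 0, 2 and 1 with gefitinib. In the other lines TRCN0000010102 had 49 counts with DMSO, 18 with gefitinib and 78 with AZD8931 over the plates of UMSCC25, and 9, 19 and 10 over those of UMSCC8, so that neither inhibitor removed it there. The number of members was 0 without DMSO replicate 1 or 3, 1 without DMSO replicate 2, and 9, 10 and 16 without gefitinib replicates 1, 2 and 3. The 7 hairpins of the reverse list were led by TRCN0000037810, with 0 counts on each DMSO plate and 6, 36 and 31 with gefitinib, followed by TRCN0000037489 with 0 on each DMSO plate and 28, 29 and 10 with gefitinib.

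UMSCC8 had 3 members. TRCN0000013512 had 18, 6 and 8 counts with DMSO and 0 on all 6 plates with an inhibitor, at least 8.73-fold lower with gefitinib and at least 11.1-fold lower with AZD8931 against the limit of 3 counts over a group. Elsewhere it was barely present, with 4, 3 and 0 counts over the DMSO, gefitinib and AZD8931 plates of UMSCC1 and 0 on every plate of UMSCC25, and it was too low to be tested in either line. TRCN0000002175 had 29, 4 and 1 counts with DMSO, 0 on each gefitinib plate, and 0, 5 and 0 with AZD8931. Most of its DMSO counts, and 18 of the 32 of TRCN0000013512, lay on replicate 1, the library with 328 shRNAs at 0. Of 21 shRNAs that had 32 to 34 DMSO counts in UMSCC8, met the DMSO criteria and were not members, 61.9% were at 0 on that plate. These 2 members thus had counts on a plate where most other hairpins of their abundance had none.
TRCN0000007325 had 2, 17 and 13 counts with DMSO, 1, 1 and 0 with AZD8931, and 4, 0 and 0 with gefitinib. All 3 hairpins were thus scarce with both inhibitors in this line, in contrast to most of those of UMSCC1, and both inhibitors share the same DMSO plates. In UMSCC25 TRCN0000007325 had 37, 8 and 16 counts with DMSO and 22, 6 and 15 with AZD8931, which is -0.39 ± 0.88 on the log2 scale (edgeR adjusted p = 0.928). In UMSCC1 its change with AZD8931 was 0.70 ± 1.11 (edgeR adjusted p = 0.889). Without DMSO replicate 1, 0 shRNAs were lost with gefitinib and 1 with AZD8931 in UMSCC8. With gefitinib the number was 11, 12 and 5 without gefitinib replicates 1, 2 and 3, and 1 without DMSO replicate 2 or 3. With AZD8931 it was 0 without DMSO replicate 2 or 3, and 5, 7 and 7 without AZD8931 replicates 1, 2 and 3.
In the reverse lists of UMSCC8, TRCN0000010180 had 0, 0 and 2 counts with DMSO and 13, 28 and 0 with AZD8931, and TRCN0000001611 had 0, 3 and 0 with DMSO and 23, 5 and 3 with gefitinib. They were of the same size as the members.

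UMSCC25 had 3 members, all with gefitinib. TRCN0000000582 had 12, 16 and 17 counts with DMSO, 2, 0 and 0 with gefitinib, and 15, 7 and 13 with AZD8931. Its DMSO counts were the most even of all members with over 40 counts. Its log2 fold change with gefitinib was below 0 in both other lines, -1.40 in UMSCC8 (31, 33 and 21 counts with DMSO, 2, 8 and 10 with gefitinib, ± 0.86, edgeR adjusted p = 0.518) and -1.17 in UMSCC1 (28, 38 and 67 against 64, 14 and 2, ± 0.95, edgeR adjusted p = 1.00). Neither passed, and ± gives the standard error. With AZD8931 it was 0.01 in UMSCC8 and -0.16 in UMSCC1.
TRCN0000021534 had 8, 11 and 12 counts with DMSO, 0, 1 and 0 with gefitinib, and 12, 0 and 0 with AZD8931. In UMSCC1 it had 18, 0 and 9 counts with DMSO, 1, 0 and 0 with gefitinib, and 0, 0 and 4 with AZD8931. On the log2 scale it changed by -4.33 ± 1.95 with gefitinib (edgeR unadjusted p = 0.0384, adjusted p = 1.00) and by -2.54 ± 1.74 with AZD8931 (edgeR adjusted p = 0.665), neither past the threshold. In UMSCC8 it had 7, 2 and 6 with DMSO, 0, 7 and 0 with gefitinib and 0, 0 and 5 with AZD8931. Among the UMSCC8 and UMSCC25 members, only its fitted change was below 0 in all 4 comparisons of the other lines. None of these passed the adjusted threshold. The trait was not particular to it, since TRCN0000000377 and TRCN0000001783, members of UMSCC1, had it too. With gefitinib and AZD8931, TRCN0000000377 changed by -0.78 and -1.13 in UMSCC8 and by -1.14 and -0.72 in UMSCC25. For TRCN0000001783 the values were -0.81 and -1.37 in UMSCC8 and -1.34 and -0.74 in UMSCC25. None of these passed either.
TRCN0000002210 had 23, 6 and 12 counts with DMSO, 1, 0 and 0 with gefitinib, and 0, 21 and 5 with AZD8931. In the other lines it was low with DMSO and not lower with gefitinib, with 1, 3 and 0 against 16, 0 and 12 in UMSCC1 and 1, 4 and 6 against 11, 13 and 0 in UMSCC8. Without a DMSO plate the number of members fell to 1, 1 and 0 (replicates 1, 2 and 3), and without a gefitinib plate it was 19, 6 and 15. With AZD8931 in UMSCC25, 0 shRNAs were lost, and 6, 6 and 8 were when AZD8931 replicate 1, 2 or 3 was left out. The one hairpin of the reverse list there, TRCN0000021567, had 3, 0 and 0 counts with DMSO and 10, 15 and 17 with AZD8931.

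For the 5 members of UMSCC8 and UMSCC25 that could be tested in the other lines, edgeR and DESeq2 likewise called 0, where edgeR called 0.0% of all shRNAs in every comparison. How many of the 5 were among the shRNAs that DESeq2 tested was not counted. At an unadjusted p under 0.05 edgeR had 1 of 20 tests lower and 0 higher. The background for UMSCC1 at that level was 2.08% lower and 1.62% higher with gefitinib and 4.67% and 4.87% with AZD8931. DESeq2 called 0.0% of the 3075 shRNAs that it tested with gefitinib in UMSCC1. With AZD8931 it called 0.599% of 2836 lower and 0.247% higher.

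The members were scarce hairpins in nearly every line. In UMSCC1 the 19 members had a median of 29.5 CPM over the DMSO plates, against 138 CPM for all shRNAs, and all 19 were below that level. The count limits do not ask for this, although a hairpin with few DMSO counts meets them more readily. In the lines that did not choose them, 18 of the 19 were below the median of all shRNAs in UMSCC8 and 19 of 19 in UMSCC25, with medians of 35.5 and 18.6 CPM against 164 and 150. The exception was TRCN0000003179, with 408 ± 115 CPM on the DMSO plates of UMSCC8 (SD, n = 3 plates), 37.5 ± 34.5 in UMSCC1 and 9.66 ± 5.19 in UMSCC25. In UMSCC8 it had 224, 179 and 150 counts with DMSO and 190, 126 and 94 with AZD8931, which is -0.42 ± 0.38 on the log2 scale (± standard error, edgeR adjusted p = 0.817).
The 3 members of UMSCC8 had between 23.1 and 26.0 CPM with DMSO in that line, and the 3 of UMSCC25 between 21.4 and 31.1 CPM. All 6 were also below the median of all shRNAs in each of the other lines.

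Just inside the criteria were TRCN0000002081 and TRCN0000037881, with 31 DMSO counts and 3 and 2 treated counts. The hairpins with 4 treated counts were the nearest outside by that limit, and those with the most DMSO counts among them are given here. In UMSCC1 with AZD8931 this was TRCN0000001750, with 10, 3 and 61 DMSO counts and 0, 0 and 4 with AZD8931. In UMSCC8 they were TRCN0000021563 with gefitinib (78, 8 and 7 against 0, 2 and 2) and TRCN0000006230 with AZD8931 (18, 14 and 22 against 3, 1 and 0), and in UMSCC25 TRCN0000021441 with AZD8931 (11, 20 and 8 against 0, 0 and 4). For AZD8931 in UMSCC1, 29 more shRNAs had 4 to 6 treated counts and 15 more had 20 to 29 DMSO counts. The limits cut through a continuous range of counts, with 29 and 15 shRNAs in these bands against 16 members.
None of the 6 shRNAs that the study pairs with the TGF-β receptors TGFBR1 and TGFBR2 was a member. TRCN0000039774, against TGFBR1, came nearest, with 3, 0 and 17 counts with DMSO and 0 on each gefitinib plate in UMSCC25. Its DMSO sum of 20 is under the limit of 30. The study scored reduced abundance, with p-values of single hairpins combined per gene, and did not ask for loss. A partial fall is not registered by the criteria used here, so their absence from the members does not bear on the study's ranking.

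Within the comparisons that chose them, edgeR's quasi-likelihood test called 0 members at an adjusted p under 0.05, as it called 0 of 3083 shRNAs (0.0%) with AZD8931 in UMSCC1. At an unadjusted p under 0.05 all 16 were lower there, against 4.67% of all shRNAs. DESeq2 called 5 of the 16, and called lower 0.599% of the 2836 shRNAs that it tested. Nothing can be read from these, since the same counts chose the members.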

How the data were processed

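Each library counts the shRNA cassettes amplified by PCR from genomic DNA of 1 plate and sequenced on an Illumina instrument. The authors deposited unnormalized counts per shRNA. The submitters' processing notes list hg19, Bowtie 1.0.0 and edgeR, with no role for any, and BiNG!S was the analysis method named in the paper. Groups and replicate numbers come from the sample titles. The paper states that cells already carrying the library were divided over the plates, and it describes no separate transduction for each plate. The p-values therefore measure the spread between plates. No replicate pair agreed within sampling noise (reduced chi-square 6.21 to 43.1 over 27 pairs). Intervals and limits cover counting error only, since PCR reads are not independent molecules.

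The members and lists were chosen with earlier results of these data known. The quasi-likelihood test of edgeR 4.0.16 (R 4.3.3) was applied to the counts with Benjamini-Hochberg adjustment (TMM, robust glmQLFit, the 9 libraries of a line in 1 fit, shRNAs with at least 10 counts over the line). The standard error was derived from the F statistic. CPM uses TMM-scaled totals. The fit and the search for members were tested on simulated data with 200 shRNAs lowered. DESeq2 1.42.0, RLE factors, total counts, other filters, a replicate block, left-out plates and other count limits were alternatives. The named shRNAs were those with the most DMSO counts in each comparison, those of more than 1 comparison, those nearest the limits, the leading ones of the reverse lists and the TGF-β receptor hairpins; being only 25, the remaining members were named as well. Of the reverse lists, TRCN0000037489 and TRCN0000037881 were named after their values were seen. Sequences of the hairpins were not used here.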

Additional observations from a re-analysis of the deposited data

Results flagged for a closer look

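Under AZD8931, 3 members moved in opposite directions in 2 lines on every plate. The direction in UMSCC1 is the one that chose them, and the difference was not tested. TRCN0000001935 had 68 counts over the DMSO plates and 0 over the AZD8931 plates of UMSCC1, against 19 and 82 in UMSCC25. TRCN0000010021 had 107 and 2 in UMSCC1, against 18 and 83 in UMSCC25. TRCN0000010127 had 54 and 0 in UMSCC1, against 6 and 48 in UMSCC25. In UMSCC25 the counts of these hairpins on AZD8931 replicate 1 (24, 9 and 7) were nearer to the DMSO plates than those on replicates 2 and 3 for TRCN0000010021 and TRCN0000010127. A search of 50 combinations of a member and an inhibitor gave these 3. It looked for opposite directions only, and how many of all shRNAs would be found in this way was not counted.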

How the results depend on the processing

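Numbers of shRNAs are given in the order gefitinib in UMSCC1, UMSCC8 and UMSCC25, then AZD8931 in the same lines, first lost with the inhibitor, then lost with DMSO. With at least 20 counts required they were 13, 4, 12, 31, 4 and 7, and 11, 2, 2, 7, 5 and 4. With at least 60 they were 0, 0, 0, 4, 0 and 0, and 2, 0, 0, 0, 0 and 0. With 0 counts allowed in the group that lost the hairpin they were 0, 2, 0, 6, 1 and 0, and 4, 0, 1, 1, 1 and 0. With up to 6 allowed they were 8, 10, 7, 45, 6 and 3, and 14, 1, 2, 9, 4 and 4. Scaling to the lowest library total, which lowers all counts, gave 1, 1, 0, 3, 0 and 0, and 1, 0, 0, 0, 0 and 1. Requiring all 3 plates above 0 gave 3, 2, 3, 12, 2 and 0, and 5, 1, 1, 1, 1 and 1. Scaling to the mean total of the line, added after the data were seen, gave 5, 2, 2, 15, 2 and 0, and 4, 0, 1, 2, 2 and 1. The members found with this scaling were 1 of 4, 2 of 2 and 2 of 3 with gefitinib and 14 of 16 and 2 of 2 with AZD8931 in UMSCC1 and UMSCC8. With scaling to the lowest total they were 1 of the 16 with AZD8931 in UMSCC1 and 0 elsewhere.

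Leaving out 1 plate gave 0 to 16, 0 to 12 and 0 to 19 lost with gefitinib and 3 to 76, 0 to 7 and 0 to 8 with AZD8931. Lost with DMSO were 3 to 26, 0 to 9 and 0 to 5 (gefitinib comparisons) and 0 to 15, 0 to 12 and 0 to 8 (AZD8931 comparisons). The cause of the difference between plates was not tested.

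In the other lines, 0 members were called lower or higher under every alternative run, which shows no stability, since edgeR called 0 of all shRNAs in every comparison. With the replicate block the median log2 fold change of the UMSCC1 members was 0.73 with gefitinib and 0.59 with AZD8931 in UMSCC8, and -0.64 and 0.95 in UMSCC25. The deviations of same-numbered libraries had correlations from -0.20 to 0.21 over 27 pairs, against -0.34 to 0.24 for differently numbered ones. The main fit therefore did not pair the plates by number. Whether plates of 1 number were handled together cannot be told from this. Leaving out a library gave medians of 0.18 to 1.48 (gefitinib) and -0.12 to 0.99 (AZD8931) for the UMSCC1 members in UMSCC8, and -1.57 to 0.38 and 0.72 to 1.42 in UMSCC25. For the UMSCC8 members tested they were 0.03 to 1.75 and 0.38 to 1.74 in UMSCC1, and -1.20 to 0.46 and -0.99 to 0.67 in UMSCC25. For the UMSCC25 members they were -2.64 to -0.65 and -2.10 to 0.22 in UMSCC1, and -1.21 to -0.39 and -0.23 to 0.34 in UMSCC8.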
